A study of Gallus gallus with 65 samples.

Results

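The basal transcription machinery was examined in sensory epithelia (SE) of the chick utricle after neomycin damage. It was taken as every gene probe whose array name begins with TAF and a digit, GTF, POLR, TBP, SUPT, MED and a digit, CRSP, BRF, TCEA, TCEB, CNOT, ELL, NELF or CCNT, with the mismatch versions of TAF3B2 left out. The rule found 63 of the 1507 gene probes on the array, each spotted 2 times, and it used names alone and no measured value. No array name began with POLR or NELF (0 of each), so the polymerase subunits and negative elongation factor were not measured.

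RNA polymerase II cannot find a promoter alone. TFIID, made of the TATA-binding protein TBP and its associated factors (TAFs), marks the promoter, and TFIIA, TFIIB, TFIIE, TFIIF and TFIIH assemble there with the polymerase, TFIIH opening the DNA. Mediator carries signals from activators to this assembly, elongation factors such as ELL and the elongins keep the polymerase moving, and CCR4-NOT shortens the tails of the finished messages. RNA polymerases I and III use related factors of their own (SL1, TFIIIA and TFIIIC) for ribosomal and transfer RNA genes.

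Utricles of White Leghorn chicks, 10 to 21 days after hatching, were cultured for 24 hr in medium containing 1 mM neomycin, an aminoglycoside that kills hair cells, or in the same medium without it (control). Neomycin and control SE were collected straight after treatment (0 hr) and after 24 and 48 hr of recovery, each neomycin pool being set against the control pool of its own time. A biological sample paired 4 pooled neomycin SE with 4 pooled control SE, and there were 3 samples at each time point. The SE, which hold hair cells and supporting cells, were freed of stroma with thermolysin, and amplified RNA of both pools was hybridised together to 50-base probes designed on human genes. All values below are log2 ratios, neomycin over control, in which 0 means equal signal. A mean at 1 time point is over 3 samples and a mean over time points over 9, and a standard error (SE) comes from the fit across probes.

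Signal was low on these cross-species probes. There were 65 arrays, of which 25 were of 0 hr samples, 21 of 24 hr samples and 19 of 48 hr samples (4 to 11 per biological sample). The median probe exceeded its local background 1.92-fold in Cy3 but only 1.72-fold in Cy5. Probes of the basal machinery lay above background on a median of 40.0% of arrays, the same 40.0% as all gene probes, with a range of 13 of 65 arrays (TAF2G and TAF2N) to 64 of 65 (TAF2H). Neomycin RNA was in Cy3 on 34 arrays and in Cy5 on 31, as the image names in the deposited headers give it for 65 of 65 arrays; the sample labels alone do not settle it, and if those names were wrong every sign below would turn. Ratios of different biological samples of a time point correlated with a median r of 0.149 over the basal machinery and 0.0226 over all probes kept, a description across probes that share arrays. The hair cell markers ATOH1, BARHL1, GFI1 and POU4F3 were above background on 52.3%, 53.8%, 56.9% and 40.0% of arrays. The supporting cell markers SOX2 and HEY1 were above it on 76.9% and 75.4%, and PROX1 on fewer arrays than any of these. Array names not taken as genes ranged from 15.4% (CE1mm3 and MT502) to 58.5% (MT708). The hair cell markers lay within that range, so their shares do not show that they were detected. The 3 arrays whose brightness pattern correlated least with the others were kept.

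Of the 63 probes, 56 passed a filter that removed the dimmest 15% of gene probes, leaving 1281. BRF2, SUPT3H, SUPT5H, TAF1A, TAF2G, TAF2N and TCEAL1 did not pass, and their mean log2 ratios lay between -0.17 (TCEAL1 at 0 hr) and 0.14 (TAF2N at 48 hr). TAF2N, with a brightness of 497, lay just outside the limit of 499, and TAF2D, at 507, just inside it.

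No gene of the basal machinery changed by the test used across all probes. With limma and Benjamini-Hochberg adjustment over 1281 probes, 0 of the 56 passed an adjusted p of 0.05 at 0, 24 or 48 hr, in the mean over time points, in the differences between time points or in the F test over time points. Among all probes, 0 passed in each of these tests except the mean over time points, where 5 did (0.390%). A t-test in place of limma also called 0 of the 56 after adjustment. It is not the paper's procedure, which took the hybridizations of each time point with a limit on fold change and states no adjustment. In pooled tissue, fewer cells of a type and less RNA per cell cannot be told apart in any of the ratios that follow.

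At an unadjusted p under 0.05, the count lay above the background at 48 hr and closer to it at 0 and 24 hr, but it depended on the samples and settings. Leaving out 1 sample gave 4 to 6 genes at 0 hr, 1 to 11 at 24 hr and 3 to 9 at 48 hr, and other settings 1 to 10, 0 to 5 and 0 to 9. These ranges stand without a share of all probes, so only the counts that follow have a background. At 0 hr 5 of the 56 passed (8.93%), against 6.40% of all probes. Of these 1 was higher in neomycin SE (1.79%, against 3.83%) and 4 were lower (7.14%, against 2.58%). At 24 hr 4 passed (7.14%), against 5.93%, with 3 higher (5.36%, against 2.97%) and 1 lower (1.79%, against 2.97%). At 48 hr 8 passed (14.3%), against 7.42%. All 8 had higher signal in neomycin SE, a direction that 5.07% of all probes took, and 0 had lower signal, against 2.34%. They were GTF2A1, GTF2H2, GTF2H4, GTF3A, GTF3C1, GTF3C3, ELL2 and TAF3B2. In the mean over the 3 time points 11 passed (19.6%), against 12.2%, with 10 higher (17.9%, against 7.96%) and 1 lower (1.79%, against 4.22%). The higher ones were the same 8 genes with CNOT4 and CRSP9, and the lower one was TCEB3. The F test over time points passed 8 (14.3%), against 7.34%. The differences between time points passed 3 in 24 hr minus 0 hr, all higher at 24 hr (5.36%, against 1.56% higher and 1.01% lower over all probes). They passed 1 in 48 hr minus 24 hr, lower at 48 hr (1.79%, against 2.11% higher and 1.56% lower), and 1 in 48 hr minus 0 hr, higher at 48 hr (1.79%, against 1.56% higher and 1.17% lower). Over all 8 tests, 18 of the 56 passed at least once, as did 22.4% of all probes. The t-test in place of limma gave 3, 2 and 5 at 0, 24 and 48 hr and 12 in the mean over time points, with no share of all probes beside these counts.

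**Figure D1:**
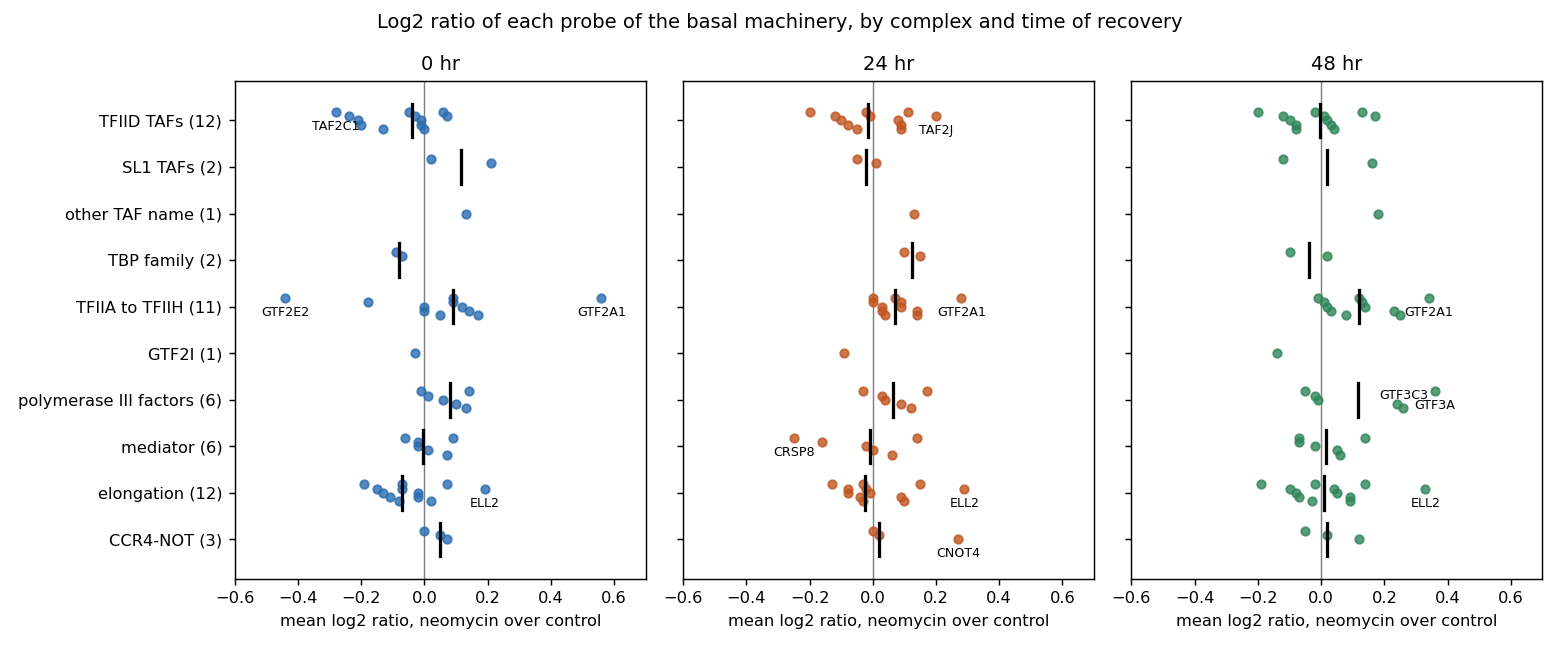
Mean log2 ratio (neomycin over control) of the 56 probes of the basal machinery that passed the brightness filter, by complex down the page and by time of recovery across panels. Each point is 1 probe (mean of 3 biological samples) and each black bar the median of its complex; GTF2A1 and GTF2E2 lie at the 2 ends of the 0 hr panel, at 0.56 and -0.44.

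A few genes had higher signal in neomycin SE in nearly all samples, but the 56 genes as a whole showed no lean. In 4 of the 56 genes, GTF2H2, GTF3C1, GTF3C3 and TAF3B2, all 9 biological samples lay above 0 before rounding (7.14%), against 1.95% of all probes. The second 0 hr sample of GTF2H2 was -0.07 without the 2 arrays of that sample described below, and with the median over arrays it was -0.02 for GTF2H2 and -0.04 for TAF3B2, which leaves GTF3C1 and GTF3C3. In 9 (16.1%) at least 8 of 9 samples were above 0, against 7.34%, and in 0 at least 8 of 9 were below it, against 3.43%. At 0 hr all 3 samples were above 0 in 11 genes (19.6%), against 14.9% of all probes, and below 0 in another 11 (19.6%), against 12.8%. The split of the means over 9 samples was even, with 28 of 56 above 0, against 49.4% of all probes.

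The TAFs of TFIID, the subunits that recognise core promoter elements and meet activators, had slightly lower signal in neomycin SE at 0 hr and lay near 0 afterwards. Of the 14 TFIID probes, all under the older TAF2 names, 12 passed the filter. The medians of these 12 were -0.04 (0 hr), -0.02 (24 hr) and 0.00 (48 hr), against 0.00, 0.00 and 0.01 over all probes. At 0 hr 10 of the 12 means were below 0, against 51.8% of all probes, and the median over the TAFs was -0.09, -0.15 and -0.06 in the 3 samples. At 48 hr the 12 split evenly, 6 above and 6 below.

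TAF2C1, which is now TAF4, a histone-fold subunit that holds TFIID together, had log2 ratios of -0.14, -0.40 and -0.29 in the 3 samples at 0 hr. It then had 0.00, 0.07 and -0.10 at 24 hr and -0.20, -0.04 and 0.18 at 48 hr. All samples were below 0 at 0 hr and lay on both sides later, and the 0 hr mean was -0.28 (SE 0.09, limma p = 0.00779, adjusted p = 0.454).

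TAF2I and TAF2K, now TAF11 and TAF13, form a histone-fold pair within TFIID. TAF2I had -0.31, -0.29 and -0.11 at 0 hr, then -0.12, 0.16 and 0.29 at 24 hr, then -0.03, -0.06 and -0.14 at 48 hr. TAF2K had -0.13, -0.26 and -0.24 at 0 hr, then -0.05, 0.02 and 0.29 at 24 hr, then 0.01, 0.10 and -0.03 at 48 hr. Both were below 0 in all 3 samples at 0 hr, and their 24 hr samples spread across 0. The 0 hr mean was -0.24 (SE 0.09, limma p = 0.0165, adjusted p = 0.642) for TAF2I and -0.21 (SE 0.08, p = 0.0232, adjusted p = 0.737) for TAF2K. Nearly all of it came from arrays with neomycin in Cy5, which gave -0.47 for TAF2I and -0.37 for TAF2K. With neomycin in Cy3 the 0 hr means were 0.00 and -0.04. The difference of 24 hr minus 0 hr was 0.35 (SE 0.12, p = 0.0137) for TAF2I and 0.30 (SE 0.11, p = 0.0224) for TAF2K, with an adjusted p of 0.997 for each by limma.

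These 0 hr values rested in good part on 2 arrays. In the second 0 hr sample, arrays 3 and 4 with neomycin in Cy5 read -2.50 and -1.49 for TAF2I, -1.81 and -1.16 for TAF2K and -1.27 and -2.13 for TAF2C1, while the other 3 arrays of that dye orientation lay between -0.44 and 0.23 for these genes. Without the 2 arrays, a choice made after seeing the data, the 0 hr means were -0.11 for TAF2I (p = 0.252), -0.12 for TAF2K (p = 0.194) and -0.15 for TAF2C1 (p = 0.106) by limma. Without the 3 arrays of unusual brightness pattern instead, TAF2C1 had -0.16 (p = 0.145). The small lean of the TAFs as a group remained without arrays 3 and 4. Without these 2 arrays 11 of 12 were below 0, with a median of -0.07, against -0.02 over all probes. The median over all probes was 0.00 with the 2 arrays, and the 11 of 12 has no share of all probes beside it. With all arrays the 12 ran at 0 hr from -0.24 (TAF2C1) to 0.24 (TAF2H) with neomycin in Cy3. With neomycin in Cy5 they ran from -0.47 (TAF2I) to 0.11 (TAF2C2). With the median over arrays the TAF median was -0.05, against -0.01. The 12 probes share the same samples and arrays, so they are not 12 separate readings.

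**Figure D2:**
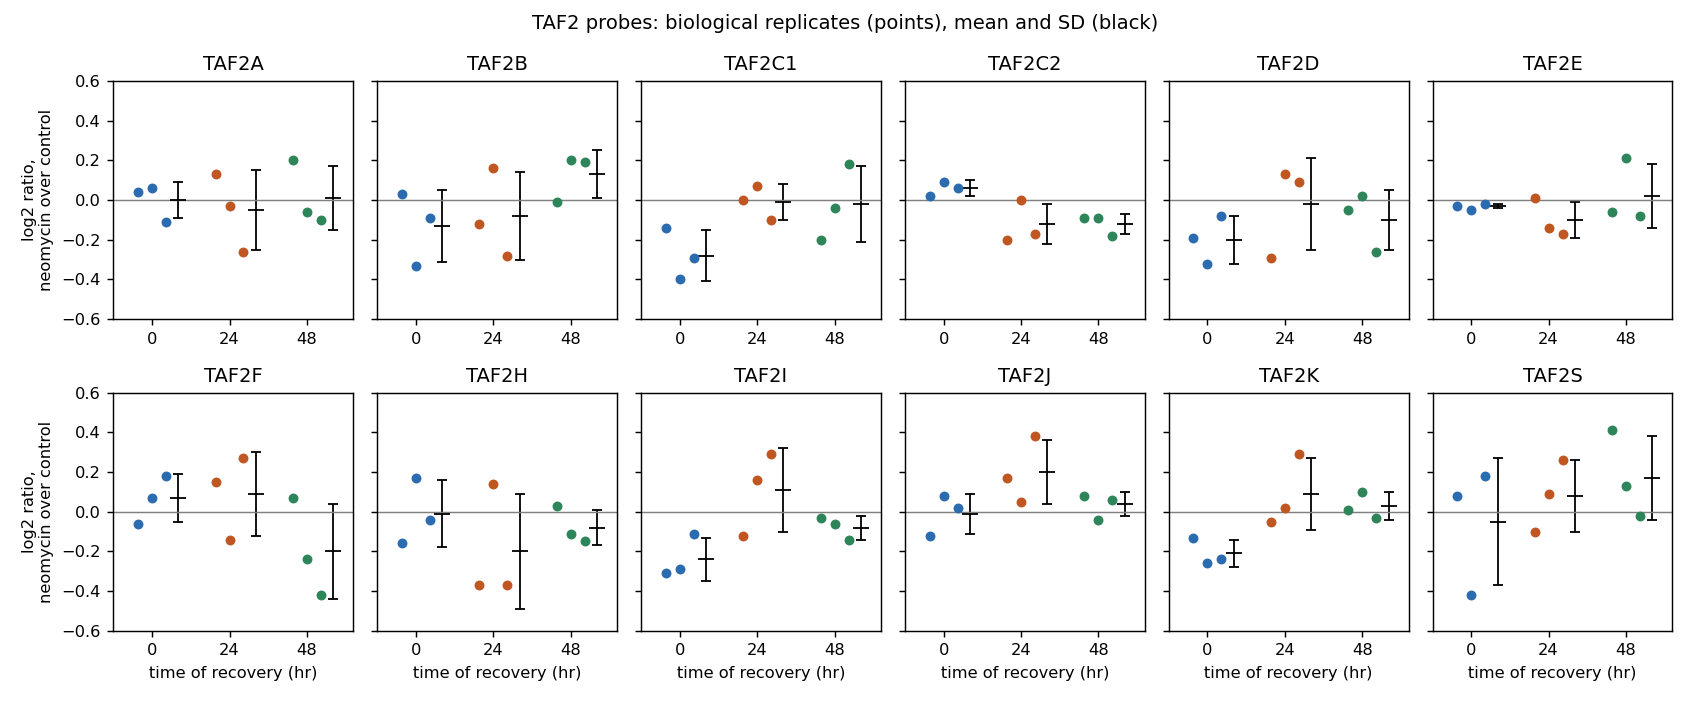
Log2 ratio (neomycin over control) of the 12 TFIID TAF probes that passed the filter, with the time of recovery in hr on the horizontal axis. Points are the 3 biological samples of each time and the black marks their mean and SD. TAF2C1, TAF2D, TAF2E, TAF2I and TAF2K have all 3 of their 0 hr samples below 0.

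The other TAFs showed no shared pattern. TAF2J, whose name the annotation used here does not place, had 0.17, 0.05 and 0.38 at 24 hr, all above 0, with a mean of 0.20 (SE 0.08, limma p = 0.0274, adjusted p = 0.798). On arrays with neomycin in Cy5 its 24 hr mean was -0.03. TAF2H, now TAF10, shared by TFIID and the SAGA coactivator, was the probe most often above background, and it had -0.37, 0.14 and -0.37 at 24 hr. One of these samples lay above 0, and the mean was -0.20 (SE 0.10, limma p = 0.0763, adjusted p = 0.822). TAF2E (now TAF6, another histone-fold subunit) was tight at 0 hr, with -0.03, -0.05 and -0.02. TAF2B, TAF2D, TAF2A, TAF2F and TAF2S had means between -0.20 and 0.17 at the 3 time points.

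TBP itself, the subunit that bends the TATA box, stayed close to equal signal. Its log2 ratios were -0.07, -0.04 and -0.16 at 0 hr, then -0.08, 0.06 and 0.33 at 24 hr, then 0.04, 0.01 and 0.01 at 48 hr. All 3 samples were below 0 at 0 hr and above it at 48 hr, by small amounts. With the median over arrays these sides were lost, at -0.07, 0.18 and -0.21 for 0 hr and -0.10, -0.01 and -0.09 for 48 hr. TBPL1, a TBP relative that does not bind the TATA box, had -0.15, -0.13 and 0.08 at 0 hr, then 0.20, -0.01 and 0.26 at 24 hr, then -0.09, -0.11 and -0.09 at 48 hr. Its 48 hr samples all lay below its 24 hr samples, with a difference of -0.25 (SE 0.11, limma p = 0.0435, adjusted p = 0.999). Of the 56 genes it alone passed an unadjusted p of 0.05 in 48 hr minus 24 hr (1.79%), against 3.67% of all probes. With the median over arrays its samples overlapped, at 0.23, 0.01 and 0.18 for 24 hr and 0.11, -0.07 and 0.12 for 48 hr. TBPL1 then no longer passed, while TAF2F did. It also did not pass without the 3 arrays of unusual brightness pattern. Its 48 hr mean was -0.26 with neomycin in Cy3 and 0.07 with neomycin in Cy5.

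The TAFs of SL1, which brings RNA polymerase I to ribosomal genes, were dim. TAF1B had 0.66, 0.07 and -0.10 at 0 hr, then 0.11, -0.07 and -0.01 at 24 hr, then 0.19, 0.10 and 0.19 at 48 hr. One sample at 0 hr stood well above the others, and the mean over time points was 0.13 (SE 0.07, limma p = 0.0852, adjusted p = 0.471). Its dye orientations were the furthest apart of all the genes described here: the mean was 0.56 on arrays with neomycin in Cy3 and -0.31 on those with neomycin in Cy5. TAF1C had means of 0.02, -0.05 and -0.12 at 0, 24 and 48 hr.

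The general factors TFIIA to TFIIH, all 11 of which passed the filter, leaned the other way from the TAFs. The medians of the 11 log2 ratios were 0.09 (0 hr), 0.07 (24 hr) and 0.12 (48 hr), with 8, 10 and 10 of the 11 above 0 (48.2%, 52.1% and 52.7% of all probes). The median over the 11 was above 0 in every sample at 0 hr (0.08, 0.03 and 0.15) and at 48 hr (0.18, 0.03 and 0.15). These values average both dye orientations, which did not share the lean at 0 hr. With neomycin in Cy3 all but GTF2E2 (0.00) and GTF2F1 (-0.02) were above 0. With neomycin in Cy5, GTF2A2, GTF2E1, GTF2E2, GTF2F1, GTF2H1 and GTF2H3 were below 0 (-0.87 to -0.14). GTF2A1, GTF2B, GTF2F2, GTF2H2 and GTF2H4 were above it (0.11 to 0.74). These were also the better measured probes, above background on a median of 64.6% of arrays, against 40.0% for all gene probes.

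GTF2A1, which encodes the large subunit of TFIIA, the factor that steadies TBP on DNA, had the highest 0 hr log2 ratio of all 1281 probes. Its values were 0.95, 0.26 and 0.48 at 0 hr, then 0.38, -0.12 and 0.59 at 24 hr, then 0.61, 0.02 and 0.38 at 48 hr. Of the 9 samples 8 were above 0, and the second sample was the lowest of its time point all 3 times. The 0 hr mean was 0.56, or 1.48-fold (SE 0.15, limma p = 0.00286, adjusted p = 0.364). The mean over time points was 0.39, or 1.31-fold (SE 0.09, p = 0.000691), with an adjusted p of 0.0815 by limma, the lowest among the 56 genes in that test. Both dye orientations were on the same side, at 0.33 with neomycin in Cy3 and 0.46 with neomycin in Cy5, and 43 of 65 arrays were above 0. GTF2A2, the small subunit of TFIIA, had means of 0.00, 0.09 and 0.08 at 0, 24 and 48 hr and so did not share the size of the GTF2A1 ratio.

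GTF2E2, the small subunit of TFIIE, which brings TFIIH to the promoter, had the lowest 0 hr log2 ratio of all 1281 probes. It had -0.42, -0.48 and -0.41 at 0 hr, then -0.05, 0.03 and 0.01 at 24 hr, then 0.43, 0.05 and -0.13 at 48 hr. The 0 hr samples lay close together and below all 6 later ones. The 0 hr mean was -0.44, or 0.739-fold (SE 0.09, limma p = 0.000510, adjusted p = 0.218), and the difference of 48 hr minus 0 hr was 0.55 (SE 0.13, p = 0.00121, adjusted p = 0.998). In that difference it was the only one of the 56 genes to pass an unadjusted p of 0.05 (1.79%), against 2.73% of all probes. In 24 hr minus 0 hr (0.43, SE 0.13, p = 0.00616) it passed together with TAF2I and TAF2K (5.36%), against 2.58%. The 48 hr value of 0.43 in its first sample rested on 1 of 5 arrays, which read 2.74 while the others lay between -0.34 and 0.41, and it was 0.01 with the median over arrays.

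The closeness of those 3 samples hides a large split between arrays. The 0 hr mean of GTF2E2 was 0.00 on arrays with neomycin in Cy3 and -0.87 on arrays with neomycin in Cy5. In the second sample, Cy5 array 3 alone read -5.93, while the other 4 of that orientation read 0.21, -0.14, 0.50 and 0.36. On array 3 the raw log2 ratio was -0.43, against an array median of 0.66, and it was -1.14 after median centring of the array. The probe held place 5 in order of brightness there, and its duplicate spots gave signals of 10800 and 13800 in the neomycin channel against 10600 and 28300 in the control channel. The value of -5.93 therefore appeared at the loess step, and it was -5.89 with print-tip loess. Array 3 had the widest spread of log2 ratios of all 65 arrays (SD 1.13, against a median of 0.41).

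The third 0 hr sample did not rest on 1 array. With neomycin in Cy5 its 5 arrays read -0.01, -1.19, -1.53, -0.99 and -1.34 for GTF2E2, and with neomycin in Cy3 they read 0.22, 0.65, -0.88, 0.63 and 0.36. The orientations were thus on opposite sides of 0 in most arrays of this sample. Without arrays 3 and 4 of the second sample the 0 hr mean of GTF2E2 was -0.24 (limma p = 0.0528), and with the median over arrays in place of the mean it was -0.26 (p = 0.0288). Of the 5 genes that passed an unadjusted p of 0.05 at 0 hr, 1 (GTF2A1) also passed without the 2 arrays and 2 (GTF2A1 and GTF2E2) with medians. Without the 2 arrays GTF2E1, GTF2H3 and GTF3C4 (higher) and TCEB3 (lower) passed instead.

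The differences from 0 hr moved in the same way. For GTF2E2, 48 hr minus 0 hr was 0.36 (limma p = 0.0447) without the 2 arrays and 0.23 (p = 0.145) with medians, and 24 hr minus 0 hr was 0.24 (p = 0.157) and 0.32 (p = 0.0492). Of GTF2E2, TAF2I and TAF2K, which had passed in 24 hr minus 0 hr, 0 passed without the 2 arrays, where CNOT4, TAF2J and TCEA2 did, and 1 (GTF2E2) passed with medians. For TAF2I and TAF2K that difference was 0.12 (p = 0.324) and 0.09 (p = 0.420) with medians.

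With medians, 6 of the 8 genes of 48 hr passed again, GTF2A1 and GTF3A being lost. TAF2F passed in addition and was lower, so that the 7 genes passing were no longer all higher. The share of all probes was 7.65%. In the mean over time points 9 of the 11 genes passed again with medians, CRSP9 and GTF3A being lost. GTF2B, GTF2E1, GTF2F2, TAF2H and TCEB1 passed in addition, which gave 14 genes, 12 higher and 2 lower. The share of all probes was 14.0%. Without the 2 arrays, which touch 1 sample of 0 hr, 10 of the 11 genes of that mean passed again, CRSP9 being lost. GTF2H3 and TAF2H passed in addition, which gave 12 genes, and the share of all probes was 14.2%. GTF2E1, the large subunit of TFIIE, had means of 0.12, 0.04 and 0.01 at 0, 24 and 48 hr.

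TFIIH carries the helicases that melt the promoter and also serves nucleotide excision repair, and its core probes GTF2H1 to GTF2H4 had medians of 0.10, 0.08 and 0.13 at 0, 24 and 48 hr. GTF2H2 had 0.22, 0.03 and 0.18 at 0 hr, then 0.04, 0.03 and 0.35 at 24 hr, then 0.46, 0.23 and 0.06 at 48 hr. All 9 samples were above 0, and the mean over time points was 0.18, or 1.13-fold (SE 0.05, limma p = 0.00614, adjusted p = 0.157). GTF2H4 had 0.09, 0.10 and 0.34 at 0 hr, then 0.06, -0.14 and 0.35 at 24 hr, then 0.18, 0.12 and 0.40 at 48 hr. Sample 3 was the highest at each time point, but at 0 hr 1 array read 2.08 and its median over arrays was 0.11, as in sample 2. The mean over time points was 0.16 (SE 0.06, p = 0.0137, adjusted p = 0.225 by limma). In sample 3 of 24 hr GTF2H2 read 2.06 on 1 array and was 0.09 with the median. At 48 hr array 3 of sample 1 with neomycin in Cy3 had a wide spread (SD 0.87, against a median of 0.41). It read 1.57 for GTF2H4, 1.60 for GTF2H2, 1.07 for GTF2A1 and 2.43 for GTF3C1. With the median over arrays that sample was 0.23, 0.43, 0.69 and 0.19 for these genes. The dye orientations had the same sign for GTF2H2, at 0.19 with neomycin in Cy3 and 0.16 in Cy5, and for GTF2H4, at 0.08 and 0.25. GTF2H3 and GTF2H1, of the same core, had means between -0.01 and 0.07.

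GTF2F1, the large subunit of TFIIF, which binds the polymerase itself, had -0.03, -0.24 and -0.26 at 0 hr, then -0.14, 0.05 and 0.19 at 24 hr, then 0.25, -0.42 and 0.23 at 48 hr. Samples of the later times lay on both sides of 0, and the 0 hr mean was -0.18 (SE 0.12, limma p = 0.160, adjusted p = 0.942). GTF2F2, its partner, and GTF2B, which sets the start site, had means of 0.09, 0.03 and 0.14, and 0.09, 0.14 and 0.13, at 0, 24 and 48 hr. GTF2I, an activator named with the general factors, had -0.03, -0.09 and -0.14.

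**Figure D3:**
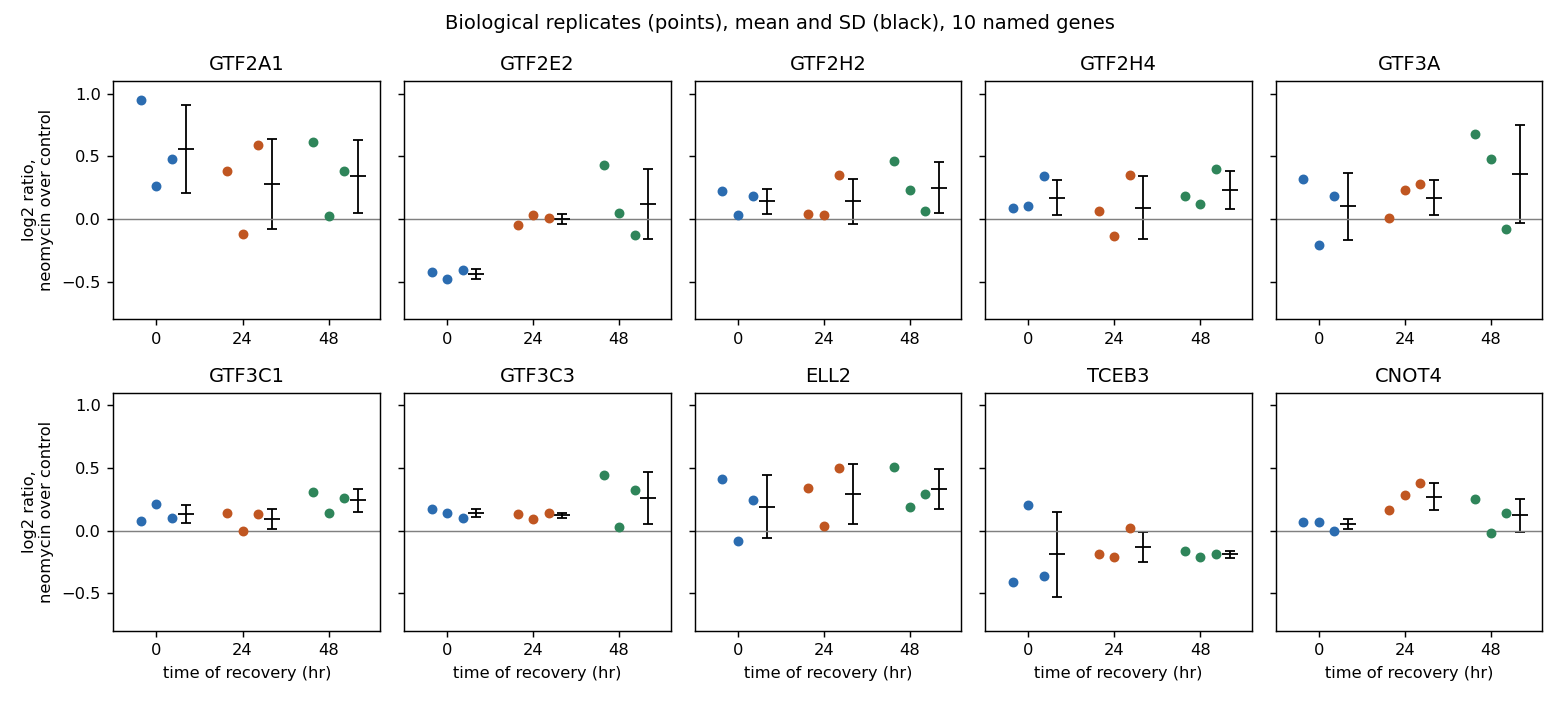
Log2 ratio (neomycin over control) of 10 named genes, with the time of recovery in hr on the horizontal axis. Points are the 3 biological samples of each time and the black marks their mean and SD; GTF2A1 and ELL2 lie above 0 in 8 of 9 samples, and GTF2E2 lies below 0 in all 3 samples of 0 hr.

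The RNA polymerase III factors, TFIIIA, TFIIIC and BRF2, gave 3 of the 8 genes that passed an unadjusted p of 0.05 at 48 hr. Of 7 probes, 6 passed the filter, with medians of 0.08, 0.07 and 0.11 at 0, 24 and 48 hr. GTF3C1, the largest TFIIIC subunit, which contacts the internal promoter of transfer RNA genes, had 0.08, 0.21 and 0.10 at 0 hr, then 0.14, 0.00 and 0.13 at 24 hr, then 0.31, 0.14 and 0.26 at 48 hr. No sample was below 0, and its 48 hr mean of 0.24 (SE 0.07, limma p = 0.00592, adjusted p = 0.598) had the smallest p of the 56 genes at that time.

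GTF3C3, another TFIIIC subunit, had 0.17, 0.14 and 0.10 at 0 hr, then 0.13, 0.09 and 0.14 at 24 hr, then 0.44, 0.03 and 0.32 at 48 hr. All 9 samples were above 0, and the samples of 0 and 24 hr differed by little. The mean over time points was 0.15 (SE 0.04, p = 0.00289) for GTF3C1 and 0.17 (SE 0.05, p = 0.00288) for GTF3C3, each with an adjusted p of 0.124 by limma. GTF3A (TFIIIA, which binds ribosomal genes of polymerase III) had 0.32, -0.21 and 0.18 at 0 hr, then 0.01, 0.23 and 0.28 at 24 hr, then 0.68, 0.48 and -0.08 at 48 hr. Its samples spread widely, and its 48 hr mean of 0.36 (SE 0.13, p = 0.0193, adjusted p = 0.598 by limma) was the highest of the 56 genes at that time. Its highest 48 hr array read 3.05, against a median of 0.15 over the arrays of that time. With the median over arrays its 48 hr samples were 0.62, 0.18 and -0.22, and it no longer passed an unadjusted p of 0.05 there.

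The signal of all 3 of these genes came mainly from 1 dye orientation. With neomycin in Cy3 and with neomycin in Cy5 the means over time points were 0.28 and 0.03 for GTF3C1, 0.26 and 0.08 for GTF3C3, and 0.34 and 0.08 for GTF3A. At 48 hr alone the orientations of GTF3C1 took opposite signs, at 0.56 and -0.08. They were 0.47 and 0.06 for GTF3C3 and 0.53 and 0.19 for GTF3A at that time. The highest 48 hr array of GTF3C1 read 2.43, against a median of 0.18 over the 19 arrays of that time. GTF3C2, GTF3C4 and GTF3C5, the other TFIIIC subunits on the array, had means between -0.05 and 0.06 at the 3 time points, so the subunits of TFIIIC did not have a common ratio.

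Mediator was close to equal signal throughout. The medians of its 6 probes were 0.00, -0.01 and 0.01 at 0, 24 and 48 hr, under the older CRSP names for all but MED6. CRSP8, now the mediator subunit MED27, had -0.06, 0.25 and -0.15 at 0 hr, then -0.12, -0.15 and -0.48 at 24 hr, then 0.02, 0.03 and -0.26 at 48 hr. Its 24 hr samples were all below 0, with a mean of -0.25 (SE 0.10, limma p = 0.0279, adjusted p = 0.798). CRSP9 had 0.13, 0.13 and 0.00 at 0 hr, then 0.12, -0.12 and 0.41 at 24 hr, then 0.25, 0.17 and 0.01 at 48 hr. Most samples were above 0, and the mean over time points was 0.12 (SE 0.05, p = 0.0467, adjusted p = 0.386 by limma). CRSP3 (MED23), CRSP6 (MED17, a core head subunit), CRSP7 and MED6 had means between -0.16 and 0.07.

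Most elongation factors lay slightly below 0 at 0 hr, and ELL2, TCEB3L and TCEB1 lay above it. Of 14 probes 12 passed the filter, with medians of -0.07, -0.03 and 0.01 at 0, 24 and 48 hr and 9, 8 and 6 of the 12 below 0 (51.8%, 47.9% and 47.3% of all probes). With the median over arrays in place of the mean, the 0 hr median was -0.02, against -0.01 over all probes, and 7 of the 12 were below 0. ELL2, a subunit of the super elongation complex that raises the polymerase's rate, had 0.41, -0.08 and 0.24 at 0 hr, then 0.34, 0.04 and 0.50 at 24 hr, then 0.51, 0.19 and 0.29 at 48 hr. Again 8 of 9 samples were above 0, and the second was the lowest of its time point each time, as for GTF2A1.

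The mean of ELL2 over time points was 0.27, or 1.21-fold (SE 0.06, limma p = 0.00101, adjusted p = 0.0928). At 24 hr it was 0.29 (SE 0.11, p = 0.0195) and at 48 hr 0.33 (SE 0.11, p = 0.0101), with adjusted p of 0.798 and 0.598 by limma. Its dye orientations were close, at 0.25 with neomycin in Cy3 and 0.30 with neomycin in Cy5, and 47 of 65 arrays were above 0. ELL, its paralog, was above background on 52 of 65 arrays and had means of -0.08, -0.03 and -0.07 at 0, 24 and 48 hr.

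TCEB3 (elongin A, the active subunit of the elongin complex) was the only 1 of the 11 genes of the mean over time points with lower signal in neomycin SE. It had -0.41, 0.20 and -0.36 at 0 hr, then -0.19, -0.21 and 0.02 at 24 hr, then -0.16, -0.21 and -0.19 at 48 hr. Of the 9 samples 7 were below 0, those of 48 hr within a narrow range, and the mean over time points was -0.17 (SE 0.06, limma p = 0.0179, adjusted p = 0.267). All of it came from arrays with neomycin in Cy5, which gave -0.34, against 0.00 with neomycin in Cy3. TCEB1, which encodes elongin C, had means of 0.02, 0.15 and 0.09, and TCEB2, elongin B, -0.02, -0.04 and 0.14. The cyclins CCNT1 and CCNT2, which activate the elongation kinase CDK9, the chromatin-linked factors SUPT4H1 and SUPT6H, the cleavage factors TCEA1 and TCEA2, and TCEB3L had means between -0.15 and 0.10.

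CNOT4, a ubiquitin ligase that works with the CCR4-NOT deadenylase, had 0.07, 0.07 and 0.00 at 0 hr, then 0.16, 0.28 and 0.38 at 24 hr, then 0.25, -0.02 and 0.14 at 48 hr. Its 24 hr samples were all above those of 0 hr. The 24 hr mean was 0.27, or 1.21-fold (SE 0.08), and with p = 0.00396 and an adjusted p of 0.798 by limma it had the smallest p of the 56 genes at that time. Both dye orientations were above 0 over the 3 time points (0.13 with neomycin in Cy3 and 0.16 in Cy5). The other CCR4-NOT probes, CNOT3 and CNOT8, had means between -0.05 and 0.07.

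Dye orientation was compared for all 56 genes, because the same RNA pair was hybridised both ways round. After turning, arrays of 1 biological sample correlated with a median r of 0.223 within an orientation and -0.0619 between orientations, over all probes. The mean over time points lay on opposite sides of 0 in the 2 orientations for 28 of the 56 genes, against 57.1% of all probes. GTF2A1, ELL2, GTF2H2, GTF2H4, GTF3A, GTF3C3, CNOT4, CRSP9, TCEB1 and TAF3B2 had at least 0.08 in each orientation, which is the lowest value in that list. The share of all probes that reach it was not counted, so the list has no background to be read against. GTF2E2 (0.20 in Cy3 and -0.41 in Cy5), TBP (0.23 and -0.21) and CRSP6 (0.19 and -0.23) took opposite signs. The part of dye in these ratios was not tested.

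**Figure D4:**
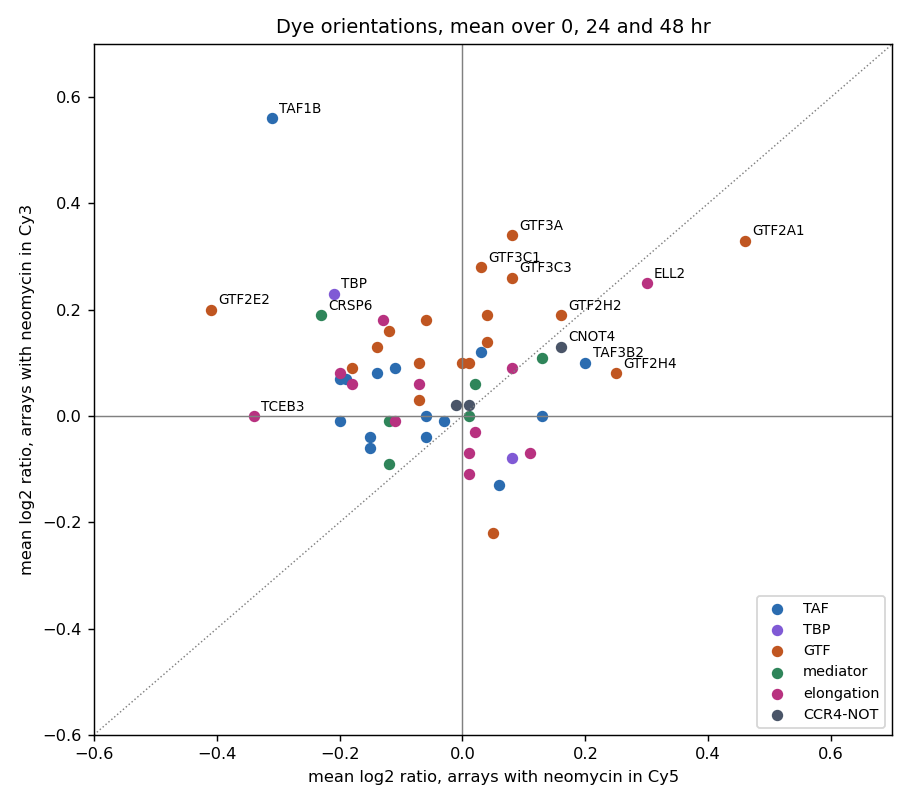
Mean log2 ratio (neomycin over control) over the 3 time points on arrays with neomycin in Cy5 (horizontal axis) and in Cy3 (vertical axis), 1 point for each of the 56 genes, coloured by group, with the dotted line marking equal values. GTF2A1 and ELL2 lie near the line at the upper right, while TAF1B (0.56 in Cy3 and -0.31 in Cy5) and GTF2E2 lie far from it.

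TAF3B2 could be set beside probes that carry mismatches to it, since the array holds 4 such versions. TAF3B2 had 0.17, 0.03 and 0.19 at 0 hr, then 0.05, 0.12 and 0.23 at 24 hr, then 0.22, 0.11 and 0.22 at 48 hr. All 9 samples were above 0, with a mean of 0.15 (SE 0.04, limma p = 0.00374, adjusted p = 0.125). Its signal, however, was no higher than that of its mismatch versions: 1.66 times local background in Cy3 for TAF3B2 and 1.69 to 1.78 times for the 4 versions, and 1.55 times in Cy5 against 1.59 to 1.72 times. TAF3B2 was above background on 30.8% of arrays, and its versions on 24.6% to 29.2%.

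The 4 mismatch versions had means over time points of 0.06, 0.06, 0.10 and 0.07 (limma p = 0.234, 0.225, 0.0655 and 0.196), with 6, 6, 6 and 7 of 9 samples above 0. In that mean all 4 were on the same side as TAF3B2 and smaller. At 48 hr, when TAF3B2 had 0.18 (p = 0.0254), they had -0.06, 0.06, 0.02 and -0.06, on both sides of 0. Of the 27 array names not taken as genes, which include these versions, 2 passed an unadjusted p of 0.05 in the mean over time points (7.41%), both lower in neomycin SE, and their means ran from -0.16 to 0.14. The means of GTF2A1 (0.39), ELL2 (0.27), GTF3A (0.21), GTF2H2 (0.18), GTF3C3 (0.17) and GTF2H4 (0.16) lay above that range. Those of GTF3C1, CNOT4 and TAF3B2 (0.15 each) did so by a small margin. All of these genes were named because they passed in this same mean. Their place above the range was therefore largely set by that choice and gives no separate support. CRSP9 (0.12), which also passed, lay within the range.

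**Figure D5:**
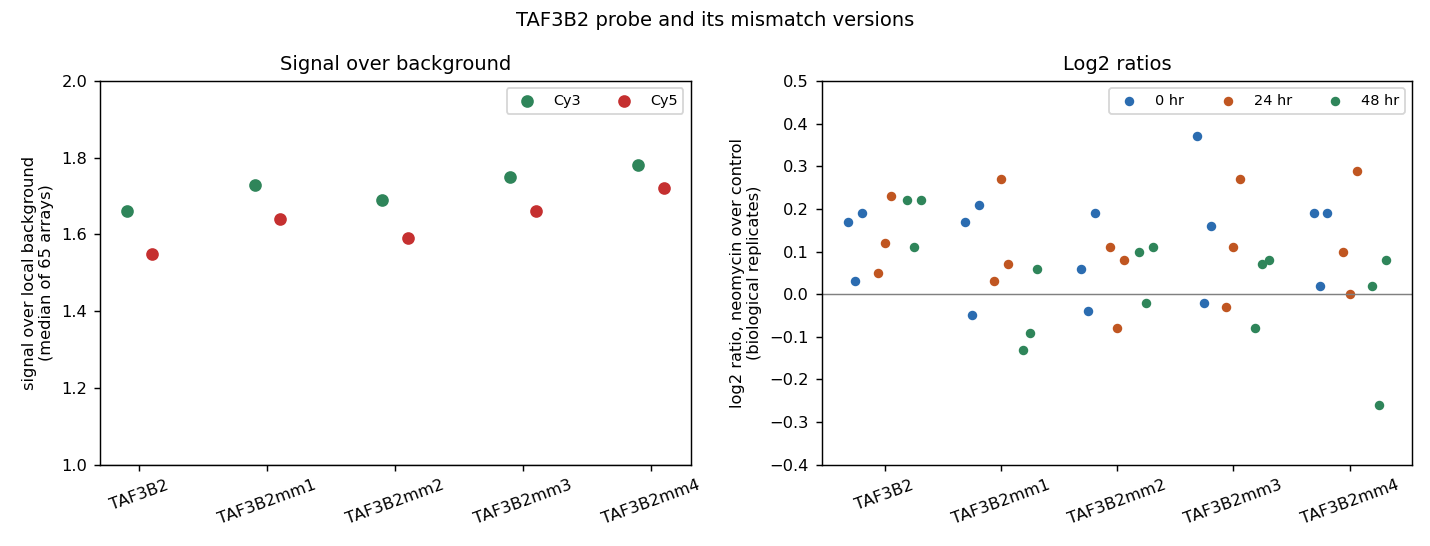
TAF3B2 and its 4 mismatch versions. The left panel plots the signal over local background as the median of 65 arrays, by dye, from 1.66 in Cy3 for TAF3B2 to 1.78 for TAF3B2mm4; the right panel plots the log2 ratio (neomycin over control) of the 9 biological samples, coloured by time of recovery, all of which lie above 0 for TAF3B2.

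Other genes that work with this machinery, fixed by name and outside the rule above, showed no common direction. Of 27 on the array 22 passed the filter, and their median log2 ratios were -0.02, -0.02 and -0.01 at 0, 24 and 48 hr. At 0 hr 2 passed an unadjusted p of 0.05, both higher, ERCC3 (0.25, p = 0.00489), the TFIIH helicase, and GCN5L2 (0.16, p = 0.0473), a histone acetyltransferase (2 of 22, against 6.40% of all probes). At 24 hr 0 did, against 5.93%. At 48 hr 3 did, against 7.42%. PPARBP (0.25, p = 0.0317), a mediator subunit, was higher, and TAF-172 (-0.29, p = 0.0269), which removes TBP from DNA, and CCNC (-0.24, p = 0.0426), the cyclin of the mediator kinase, were lower. By limma 0 of the 22 passed an adjusted p of 0.05 in any test.

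Marker genes of the cell types these samples could hold showed ratios of similar size. FOXM1, a cycling cell marker, was above 0 in 8 of 9 samples, with a mean over time points of 0.15 (limma p = 0.00803, adjusted p = 0.171). The other cycling markers that passed the filter did not share it, with means of -0.10 (MYBL2), -0.01 (E2F2) and 0.01 (TFDP1). POU4F1, of sensory neurons, had 0.34 at 24 hr (limma p = 0.0210) and 0.53 in 24 hr minus 0 hr (p = 0.0129). The other neuronal and glial markers had 0.16 (NEUROD1), 0.09 (SOX10) and -0.07 (ISL1) at 24 hr. The stromal FOXC1 had 0.18 at 0 hr (limma p = 0.0460), whereas the other stromal markers had -0.22 (TCF21), -0.04 (PMX1), -0.03 (SLUG) and -0.01 (FOXC2). By limma none of these passed an adjusted p of 0.05. The means at 0, 24 and 48 hr ran from -0.04 to 0.04 for 2 of 4 hair cell markers (POU4F3 and GFI1 did not pass the brightness filter), from -0.13 to 0.21 for 2 of 3 supporting cell markers, from -0.22 to 0.18 for 5 of 5 stromal, from -0.19 to 0.34 for 4 of 4 neuronal and glial, from -0.21 to 0.18 for 3 of 4 blood and from -0.26 to 0.18 for 4 of 5 cycling markers. The summed log2 ratio of the hair cell markers ran over the samples from -0.14 to 0.11 at 0 hr, -0.23 to 0.21 at 24 hr and -0.29 to 0.19 at 48 hr, so its range held 0 at each time. The part of cell composition in the ratios above was not tested.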

How the data were processed

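The authors deposited, for each of 65 arrays, the mean signal and local background intensity of every spot in Cy3 and Cy5 as ImaGene gave them, and a value table of log2 ratios, which matched the uncorrected log2 ratios turned so that neomycin lay over control. The table served as an alternative only. Background was corrected with normexp (offset 50) and ratios were loess-normalized within arrays in limma 3.58.1 (R 4.3.3), with the 27 names not taken as genes at weight 0 and 8 marked spots left out. The dimmest 15% of gene probes were removed. Duplicate spots, arrays of 1 dye orientation and then both orientations were averaged to 9 biological samples, since arrays of a sample share RNA. One coefficient per time point was fitted with lmFit and eBayes (two-sided tests, Benjamini-Hochberg over 1281 probes). A spot was above background when its signal exceeded the background mean by 2 SD. The number of biological samples, 3 at each time point, limits the precision.

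Members and gene lists were chosen with earlier results of these data known. Named genes were those with an unadjusted p under 0.05 in any of the 8 tests, the member with the smallest F-test p in each complex, and GTF2F1 and TAF2H, which the study lists as sharing a pattern between utricle and cochlea. The genes named beyond these stand only as means, ranges or counts, apart from TBP, TAF2E, GTF2A2, GTF2E1, ELL and the genes that passed in an alternative, which were chosen after their values were seen. The study's full list for this time course also holds GTF2A1, GTF2E1, GTF2H1, GTF2H3, GTF3C4, CRSP6, TAF1B, TAF1C, TAF2I and TAF2K. At 0 hr the study lists GTF2A1 and GTF3C4 as higher and GTF2F1, CRSP6, TAF1B, TAF2I and TAF2K as lower. The means here were 0.56 and 0.06, then -0.18, -0.06, 0.21, -0.24 and -0.21, in that order. TAF1B thus took the other side. At 48 hr the study lists GTF2A1, GTF2E1, GTF2H1 and GTF2H3 as higher and TAF1C and TAF2H as lower. The means here were 0.34, 0.01, -0.01 and 0.03, then -0.12 and -0.08, so GTF2H1 did not share its side. Both draw on the same series, so a shared side is no separate support. Of the 63 names 37 matched a RefSeq chicken symbol, 3 a synonym and 23 neither. All TAF2 names and TCEB2 matched neither, and the current names given for them were assigned by name and not by that match. The tests were run on simulated data first. Alternatives were other background, loess, filter, averaging, dye, array, block and t-test settings and leaving out each sample.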

Additional observations from a re-analysis of the deposited data

Results flagged for a closer look

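TAF2C2, now TAF4B, a tissue-restricted relative of TAF4, had log2 ratios (neomycin over control) of 0.02, 0.09 and 0.06 at 0 hr, then -0.20, 0.00 and -0.17 at 24 hr, then -0.09, -0.09 and -0.18 at 48 hr. Its samples at 0 hr all lay on the opposite side of 0 from those of each later time, the 24 hr value of 0.00 being negative before rounding. The difference was -0.18 for 24 hr minus 0 hr (limma p = 0.0979, adjusted p = 0.997) and -0.18 for 48 hr minus 0 hr (p = 0.0973, adjusted p = 0.998). The pattern rested on few arrays: the second 0 hr sample was -0.14 without 2 arrays of wide spread, and with the median over arrays the values were 0.02, 0.04 and -0.06 at 0 hr, then -0.04, 0.04 and -0.23 at 24 hr, then -0.01, -0.05 and 0.07 at 48 hr. Such opposite sides occurred in 2.26% of all 1281 probes for 24 hr minus 0 hr and in 1.72% for 48 hr minus 0 hr.

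TBP was below 0 in all samples of 0 hr and above 0 in all samples of 48 hr, with a difference of 0.11 (limma p = 0.343, adjusted p = 0.998). This too was lost without the 2 arrays, where its second 0 hr sample was 0.14, and with the median over arrays. Its 48 hr mean was 0.42 on arrays with neomycin in Cy3 and -0.38 with neomycin in Cy5.

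The mismatch versions of TAF3B2, which stand outside the comparisons by gene, had a Cy3 signal over local background of 1.73, 1.69, 1.75 and 1.78, each above the 1.66 of TAF3B2 itself. Signal on the TAF3B2 spots was thus not separated from that on probes altered away from it. At 48 hr the log2 ratio was 0.18 for TAF3B2 and -0.06, 0.06, 0.02 and -0.06 for its versions. The part of signal that does not depend on a full match in the TAF3B2 ratio was not tested.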

How the results depend on the processing

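Under 29 alternatives, 588 of 595 values of the named genes kept their direction. This was largely set in advance, since most genes were named by a small p and followed in the contrast of smallest p. The alternatives also reuse the same arrays, and no share of all probes stands beside the count. The exceptions were GTF2E2 at 0 hr (0.00) and TCEB3 in the mean over time points (0.00) with only the arrays that had neomycin in Cy3, where the unrounded values were above 0, TAF1B (-0.31) with only those in Cy5, TAF2J at 24 hr without background correction (-0.02) and with only the Cy5 arrays (-0.03), and TAF2K in 24 hr minus 0 hr with plain background subtraction (-0.02) and with only the Cy3 arrays (-0.01). The cause was not tested, and dimmer genes have no value under the strictest brightness filter.

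The count of genes passing an adjusted p of 0.05 was 0 in each test as reported. At 0 hr it was 1 (GTF2A1) in each of 3 fits over all arrays, with the biological sample as a random block, the quantification day as a random block, or no block. These fits gave 4, 5 and 5 in the mean over time points (GTF2A1, ELL2, GTF3C3 and TAF3B2, with CNOT4 under day and no block) and 2, 2 and 2 in the F test (GTF2A1 and ELL2). They take arrays of the same RNA as separate values or nearly so, the consensus correlation for the sample being 0.0017. With the replicate number as a block the mean over time points gave 2 (ELL2, adjusted p = 0.0279, and GTF2A1, 0.0145), although same-numbered samples correlated above 0.1 in only 2 of 9 pairs (from -0.11 to 0.188) and share only a number. Leaving out 1 sample gave 0 to 3 there, the 3 being ELL2, GTF2A1 and TCEB3 without the second 0 hr sample. At an unadjusted p of 0.05, counts in the mean over time points ran from 9 to 14 without 1 sample and from 4 to 14 over the other alternatives. These counts and ranges are given here without a share of all probes and so have no background to be read against. Of 564 complex medians 84 moved by more than the spread between samples. Without the 3 arrays of unusual brightness pattern, 4 of 5, 3 of 4, 8 of 8 and 11 of 11 genes passed again at 0, 24 and 48 hr and in the mean. The genes passing were then 5, 3, 9 and 13, and the shares of all probes 7.03%, 4.68%, 8.35% and 13.7%. The median over arrays and the removal of arrays 3 and 4 of the second 0 hr sample were chosen after seeing the data. Low signal over background limits all ratios.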
